A study of Mus musculus with 27 samples.

Results

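A set of 10 genes of the endoplasmic reticulum (ER) was followed across 27 RNA-seq libraries of mouse heart ventricle: Cdnf, Manf, Hspa5, Hsp90b1, Hyou1, Calr, Pdia4, Creld2, Sdf2l1 and Xbp1. They were chosen by symbol, with differences between loss and gain of MBNL1 already known, and all 10 were found among the 55487 Ensembl genes of the count table. All 10 passed the filter on low counts in every comparison. Because the contrasts of loss and gain were in view when the genes were chosen, those values are given here as a description, without p-values.

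MBNL1 is an RNA-binding protein that controls alternative splicing in muscle. The series has 7 groups. At postnatal day 60 (P60) there were 5 ventricle libraries labelled MBNL1 loss-of-function (KO) taken 7 days after knockout and 4 taken at 14 days. Controls (Ctl) of the same age numbered 4 under the 7-day label and 3 under the 14-day label. At postnatal day 7 (P7) there were 4 MBNL1 gain-of-function (Tg) libraries and 3 controls, and at postnatal day 1 (P1) there were 4 controls. The means of inducing the knockout, the deleted part of the gene, the promoter of the transgene, the alleles that controls carry, the strain and the sex are not given in the sources used here. Whether each library is a separate animal is likewise not stated, and the p-values then reflect only how these libraries vary, which may be partly technical.

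The lumen of the ER is where secreted and membrane proteins fold. When unfolded protein accumulates there, the sensors IRE1 (Ern1), PERK (Eif2ak3) and ATF6 start the unfolded protein response, which raises chaperones through the transcription factors XBP1, ATF4 and ATF6. BiP (Hspa5) and GRP94 (Hsp90b1) are the main HSP70 and HSP90 proteins of the lumen, calreticulin (Calr) holds much of its calcium and folds glycoproteins, and Pdia4 forms disulfide bonds. MANF and CDNF are small relatives of one another, named as neurotrophic factors, that reside in the ER and can be secreted, and MANF is known as a stress-induced protein of cardiac myocytes.

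The labels were first checked against Mbnl1 itself. In the Tg libraries Mbnl1 stood at 2934 to 4079 CPM (counts-per-million values after TMM scaling), against 96.9 to 104.6 CPM in the P7 controls. The libraries labelled KO did not show a uniform loss of Mbnl1 reads. At 7 days the values of libraries 1 to 5 were 219, 102, 167, 115 and 168 CPM, so libraries 1, 3 and 5 lay above the control range of 146 to 153 CPM. At 14 days the range was 115 to 137 CPM, below the controls at 151 to 170 CPM, a log2 fold change of -0.34 ± 0.09 that total count scaling turned to 0.03. A gene total does not show which exons the reads came from. Esr1, looked at after its values were seen, reached 195 to 1955 CPM in each of the 9 libraries labelled KO and at most 1.5 CPM elsewhere, and at 7 days it was lowest in libraries 1 and 5 (234 and 195 CPM) and highest in 2 and 4 (1893 and 1653 CPM). Every library labelled KO thus differed from its controls in Esr1 reads as well as in the MBNL1 label. What goes with the Esr1 reads and what goes with loss of MBNL1 cannot be told apart in these comparisons. The 5 libraries at 7 days are given one by one below. Loss, knockout and KO below name the label of the libraries.

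Total counts ran from 21929347 to 25675115 per library. With TMM, the log2 fold change of the median gene was between -0.05 and 0.03 in every comparison. Scaling by total counts instead moved that median to 0.45 at 7 days, 0.39 at 14 days and -0.65 between P7 and P60, so changes of about that size depend on the scaling.

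Cell-type markers moved as well. Of 8 fibroblast markers 6 were called higher at 7 days, 8 at 14 days and 6 in Tg, and none lower. Their summed level was 4493 to 11685 CPM in the 7-day KO libraries against 1315 to 1601 CPM in controls, 5179 to 6675 against 1471 to 1578 CPM at 14 days, and 7459 to 8778 against 6066 to 7120 CPM in Tg. All 8 macrophage markers were called higher in each of the 3 comparisons, with sums of 1045 to 1435 against 385 to 446 CPM at 7 days, 642 to 929 against 318 to 492.7 CPM at 14 days and 134 to 179 against 80.1 to 107.4 CPM in Tg. Of 8 cardiomyocyte markers 6 were called lower at either time of knockout. Their sums were 19207 to 43923 against 63478 to 68622 CPM at 7 days, lowest in libraries 1 and 5, and 43645 to 52106 against 66306 to 71584 CPM at 14 days. In Tg 2 were called higher and 2 lower. Of 4 plasma cell markers, from secretory cells rich in ER, 3 were called higher at either time and 1 lower at 14 days, with sums of 38.2 to 52.7 against 9.37 to 17.04 CPM at 7 days and 47.8 to 91.1 against 15.1 to 18.7 CPM at 14 days. Endothelial markers were called lower in 5 of 6 at 7 days, at 444 to 634 against 763 to 812 CPM, and in 3 at 14 days, at 601 to 804 against 856 to 881 CPM. No marker of these lists was at 0, and the 4 atrial markers summed to between 49.5 and 659 CPM in any library, far below the cardiomyocyte list. The part of these shifts in the results below was not tested, and in tissue RNA fewer cells of a type and less RNA per cell cannot be told apart.

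Sequences near these genes are given first. One is the ER stress response element, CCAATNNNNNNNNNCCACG, which is known to bind NF-Y at CCAAT and ATF6 or XBP1 at CCACG. Promoter windows of 250 bases before to 50 bases after each RefSeq start (GRCm38.p6) were searched on both strands, and 8 of the 10 genes matched an entry. Manf and Hyou1 had no entry and were not searched. The element lay in the windows of 4 of these 8, namely Hspa5, Calr, Hsp90b1 and Creld2, and in 0.119% of all 32851 windows. The related element ERSE-II (0.0365% of windows), in which ATTGG, the reverse complement of CCAAT, stands 1 base before CCACG, and the letters TGACGTGG (0.676%) were in none of the 8. The 5 matches are shown because this element is the textbook route from ER stress to chaperone genes, each printed along the element with its fixed letters in capitals and 5 bases on either side.
Hspa5, chr2:34772020-34772048, plus strand: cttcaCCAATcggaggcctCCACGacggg
Calr, chr8:84847070-84847098, plus strand: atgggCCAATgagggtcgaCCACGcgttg
Hsp90b1, chr10:86705633-86705661, minus strand: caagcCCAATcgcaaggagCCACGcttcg
Hsp90b1, chr10:86705528-86705556, plus strand: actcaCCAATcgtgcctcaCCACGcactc
Creld2, chr15:88819515-88819543, minus strand: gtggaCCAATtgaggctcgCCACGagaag

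The other is the stretch between Cdnf and its divergent neighbour Hspa14, shown because it lies upstream of both genes. Cdnf lies on the plus strand of chromosome 2, from 3513030 to 3526376 (GRCm38, GENCODE M21). Hspa14, which encodes a ribosome-associated HSP70 relative, lies on the minus strand from 3488850 to 3512814. Only 215 bases separate them. The stretch chr2:3512815-3513029, printed on the plus strand toward Cdnf, has CCAAT in capitals.
Cdnf upstream: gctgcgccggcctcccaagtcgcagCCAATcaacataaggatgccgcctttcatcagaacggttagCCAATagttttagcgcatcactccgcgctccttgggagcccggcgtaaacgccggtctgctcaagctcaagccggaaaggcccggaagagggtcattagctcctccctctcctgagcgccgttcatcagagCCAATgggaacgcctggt
It holds 17 CG pairs, its GC content is 59.5% against a median of 51.6% in the same stretch of all windows, and it holds CCAAT 3 times on either strand, as 2.02% of those stretches do at least that often. A match is a description of letters and not of a bound factor.

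Cdnf had, as a ratio of highest to lowest library, the widest range of the 10 genes. Its values in the P1 controls were 0.95, 1.40, 2.52 and 1.52 CPM, and in the P7 controls 3.61, 3.68 and 3.93 CPM. In the P60 controls it stood at 27.5, 23.2, 24.0 and 21.7 CPM under the 7-day label and at 27.2, 26.3 and 23.1 CPM under the 14-day label. The Tg libraries at P7 reached 28.9, 28.0, 26.1 and 28.8 CPM, with library 3 inside the range of the P60 controls and the other 3 above it. The libraries labelled KO stood at 3.06, 7.54, 6.38, 7.35 and 3.05 CPM at 7 days and at 4.26, 4.85, 5.60 and 4.76 CPM at 14 days. No KO library overlapped the controls of its own time and no Tg library overlapped the P7 controls. By group mean ± SD the order from low to high was P1 control at 1.60 ± 0.66 (n = 4), P7 control at 3.74 ± 0.17 (n = 3), KO at 14 days at 4.87 ± 0.56 (n = 4), KO at 7 days at 5.48 ± 2.25 (n = 5), P60 control of 7 days at 24.1 ± 2.45 (n = 4), P60 control of 14 days at 25.5 ± 2.17 (n = 3) and Tg at 27.9 ± 1.31 CPM (n = 4). The ranges of the KO groups overlapped one another, as did those of both P60 control groups and Tg. The 7-day KO range also spanned the P7 controls, whereas the 14-day KO libraries all lay above them.

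**Figure D1:**
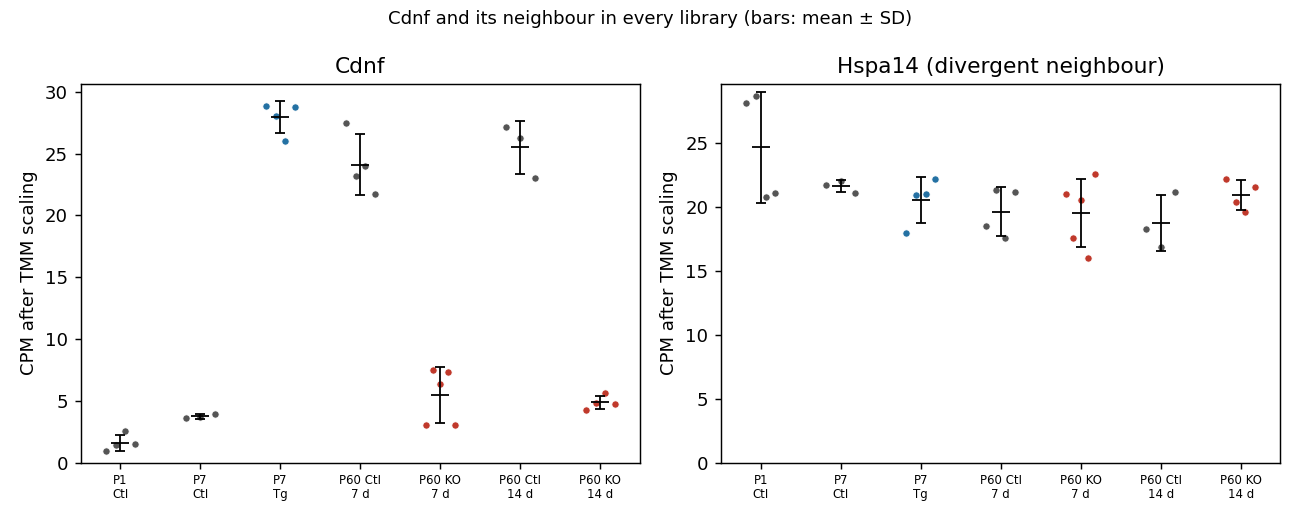
Level of Cdnf (left) and of its divergent neighbour Hspa14 (right) in each of the 27 libraries, as CPM after TMM scaling on linear axes that start at 0. Points are libraries, bars are the group mean ± SD. Cdnf fills a low band of at most 7.54 CPM and a high band of at least 21.7 CPM with nothing between, and Hspa14 stays between 16.04 and 28.7 CPM.

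The log2 fold change of Cdnf was -2.14 ± 0.27 (SE) at 7 days, which is 4.42-fold lower, and -2.39 ± 0.12 at 14 days, which is 5.26-fold lower. In the Tg libraries it was 2.90 ± 0.08, or 7.48-fold higher. The difference between the mean loss effect and the gain effect was -5.18 ± 0.29 in log2. Loss was measured at P60 and gain at P7, so the direction of the MBNL1 change and the age cannot be told apart in that difference. Within the 7-day KO libraries the lowest Cdnf values were in libraries 1 and 5, whose Esr1 levels and cardiomyocyte marker sums were also the lowest. Without these 2 libraries the 7-day value was -1.76. Hspa14, looked at after its values were seen, had log2 fold changes of -0.01 ± 0.12 at 7 days, 0.15 ± 0.11 at 14 days and -0.07 ± 0.07 in Tg, none of them called.

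Manf, the paralog of Cdnf, did not follow it. The gene lies on the minus strand of chromosome 9 (106838312 to 106891979), and its annotated span overlaps Dcaf1 on the other strand and Rbm15b on the same strand, so its counts are uncertain while the strand setting is not known. Its 7-day KO values were 44.5, 21.91, 40.4, 20.7 and 40.2 CPM against 18.2, 23.6, 20.4 and 22.9 CPM in controls. Libraries 1, 3 and 5 thus stood above every control and libraries 2 and 4 stood among them. At 14 days the KO values of 24.9, 22.6, 21.6 and 27.4 CPM overlapped the controls at 31.5, 32.0 and 25.2 CPM. The Tg values of 53.6, 40.8, 50.3 and 52.2 CPM overlapped the P7 controls, at 37.0, 36.3 and 41.0 CPM, by 1 library. The log2 fold changes were 0.65 ± 0.24, -0.30 ± 0.12 and 0.37 ± 0.08 in that order. The value at 7 days was 0.38 and no longer called without KO libraries 1 and 5, and that at 14 days turned to 0.08 with total count scaling. Over the 27 libraries the correlation of log2 CPM between Manf and Cdnf was -0.02, and that between Manf and Pdia4 was 0.85. These correlations describe libraries that share groups and depth.

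Hspa5, the HSP70 of the lumen, was the chaperone that came closest to the pattern of Cdnf. It lies on the plus strand of chromosome 2 (34771970 to 34777547). In the 7-day KO libraries its values were 353, 208, 400, 233 and 335 CPM, and the controls at 321, 418, 379 and 386 CPM overlapped them. Libraries 2 and 4, with the least Mbnl1, were the ones below every control. Cdnf was instead highest in libraries 2 and 4 of this group and lowest in libraries 1 and 5. Library 3, the highest for Hspa5, lay between them for Cdnf. Its log2 ratio to the control mean was -1.68 and -1.71 in libraries 2 and 4 and -2.98 in libraries 1 and 5. At 14 days the KO values of 277, 238, 180 and 268 CPM all lay below the controls at 481, 485 and 371 CPM. In the Tg libraries the values of 474, 418, 469 and 494 CPM all lay above the P7 controls at 274, 302 and 284 CPM. The log2 fold changes were -0.31 ± 0.19 at 7 days, -0.90 ± 0.15 at 14 days and 0.70 ± 0.06 in Tg, and the loss effect differed from the gain effect by -1.31 ± 0.22. Total count scaling turned the 7-day value to 0.11. Across the 27 libraries the correlation of Hspa5 with Cdnf was 0.76.

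Hsp90b1, the HSP90 of the lumen, moved less. Its gene on the minus strand of chromosome 10 (86690209 to 86705509) overlaps a pseudogene, 1810014B01Rik, on the other strand. The Tg values of 289, 265, 273 and 304 CPM all exceeded the P7 controls at 182, 217 and 212 CPM, a log2 fold change of 0.47 ± 0.07. The KO values overlapped their controls at both times, from 185 to 276 against 184 to 226 CPM at 7 days and from 156 to 219 against 197 to 251 CPM at 14 days. The log2 fold changes were 0.12 ± 0.13 and -0.22 ± 0.13, and that at 14 days became 0.16 with total count scaling. The loss effect differed from the gain effect by -0.53 ± 0.15, and with total count scaling by -0.10, no longer called.

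Hyou1, a large HSP70 relative that releases nucleotide from BiP, and Calr, the calcium-binding lectin chaperone, split the 7-day KO libraries. Hyou1 stood at 73.6, 34.7, 41.9, 38.5 and 67.5 CPM against 39.6 to 49.6 CPM in controls. Calr stood at 445, 260, 418, 262 and 485 CPM against 282 to 344 CPM in controls. For both genes libraries 1 and 5 lay above the controls and libraries 2 and 4 below them. At 14 days both were below their controls in every library, with 29.3 to 36.3 against 42.0 to 53.4 CPM for Hyou1 and 231 to 291 against 327 to 372 CPM for Calr. Their log2 fold changes at 14 days were -0.53 ± 0.11 and -0.44 ± 0.10. With total count scaling they shrank to -0.15 and -0.07 and were no longer called. In Tg they were 0.01 ± 0.05 and 0.05 ± 0.06, with values that overlapped the P7 controls.

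Pdia4, a protein disulfide isomerase, went the other way in the KO libraries. Its 7-day values of 56.0, 34.7, 61.1, 33.9 and 58.0 CPM all lay above the controls at 22.9, 25.6, 25.8 and 24.97 CPM. At 14 days the values of 39.2, 33.8, 26.2 and 36.7 CPM lay above the controls at 27.9, 28.6 and 26.3 CPM except in library 8. The Tg values of 54.8, 53.1, 56.7 and 56.1 CPM all lay above the P7 controls at 47.5, 49.6 and 48.9 CPM. The log2 fold changes were 0.97 ± 0.19, 0.29 ± 0.13 and 0.18 ± 0.04. Without 14-day KO library 8 the gene was called higher at 14 days as well. Pdia4 had the most negative correlation with Cdnf among the 10 genes, at -0.39 over the 27 libraries.

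Creld2 and Sdf2l1 encode ER-resident proteins that are induced with the chaperones, and SDF2L1 works with an HSP40 of the lumen. Creld2 stood at 19.5, 11.6, 13.8, 9.82 and 18.6 CPM in the 7-day KO libraries against 11.1 to 13.5 CPM in controls. It was at 10.5 to 14.1 against 11.9 to 15.7 CPM at 14 days, and at 16.3 to 18.8 against 15.6 to 16.6 CPM in Tg, with overlap in each case. Sdf2l1 stood at 9.99, 4.48, 7.84, 4.12 and 10.4 CPM at 7 days against 2.25, 4.46, 3.94 and 3.91 CPM. At 14 days its values of 2.55 to 3.72 CPM lay below the controls at 3.83 to 4.67 CPM, and in Tg its values of 6.88 to 7.67 CPM lay above the controls at 4.70 to 5.47 CPM. The log2 fold changes of Sdf2l1 were 1.01 ± 0.32, -0.43 ± 0.18 and 0.49 ± 0.10, and those of Creld2 were 0.26 ± 0.20, -0.09 ± 0.14 and 0.08 ± 0.07. With total count scaling the 14-day values became -0.05 and 0.29.

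Xbp1 encodes the transcription factor that IRE1 activates by an unconventional splice, which gene totals cannot show. Its 7-day KO values were 114, 72.0, 97.9, 71.5 and 118 CPM against 57.9 to 74.8 CPM in controls. Again libraries 1, 3 and 5 stood above the controls and libraries 2 and 4 stood among them. At 14 days the range of 71.4 to 77.5 CPM overlapped the controls at 76.3 to 88.6 CPM. In Tg the range of 87.8 to 97.7 CPM lay above the P7 controls at 69.3 to 76.3 CPM. The log2 fold changes were 0.53 ± 0.17, -0.14 ± 0.08 and 0.33 ± 0.05, and that at 14 days became 0.24 with total count scaling.

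**Figure D2:**
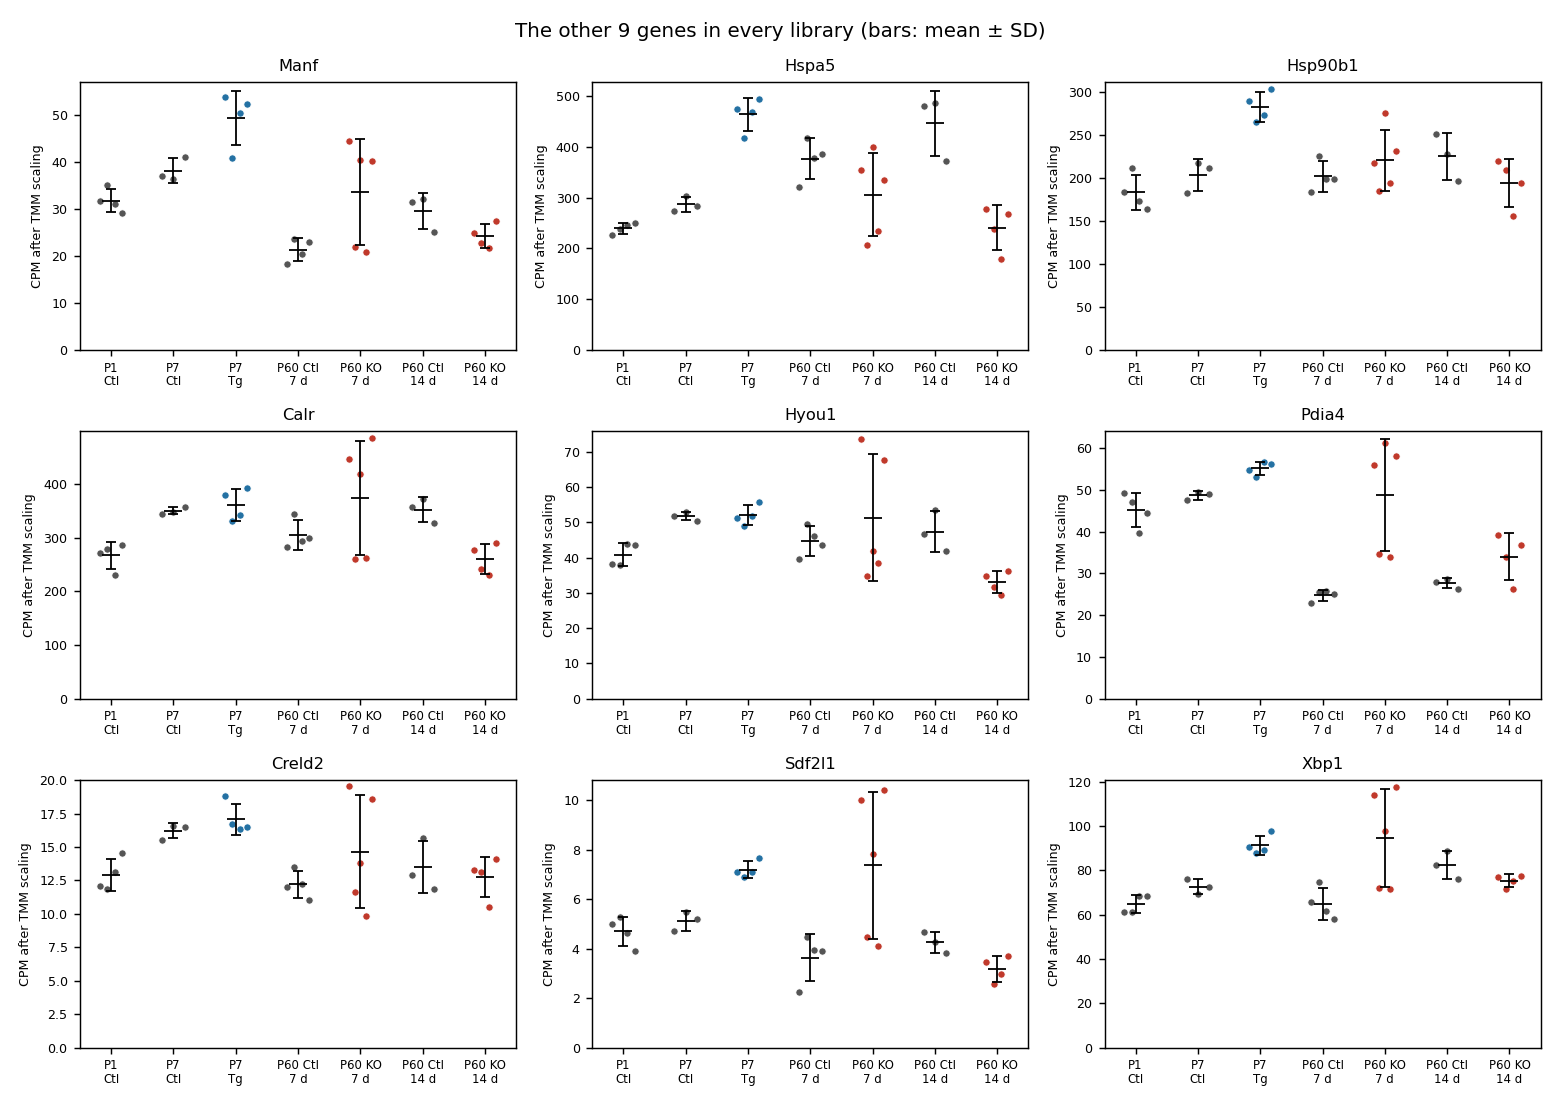
Level of the other 9 genes in each of the 27 libraries, as CPM after TMM scaling on linear axes that start at 0, with a separate axis for each gene. Points are libraries and bars are the group mean ± SD. The 7-day KO group has wide bars for most genes. For Calr libraries 2 and 4, at 260 and 262 CPM, lie apart from the others at 418 to 485 CPM, whereas for Hyou1 libraries 1 and 5, at 73.6 and 67.5 CPM, lie apart from the rest.

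By the quasi-likelihood test of edgeR, a gene was called when its p-value adjusted over all genes tested was under 0.05. At 7 days 4 of the 10 genes were called higher (Pdia4, Sdf2l1, Manf and Xbp1) and 1 lower (Cdnf), beside 26.4% and 24.3% of all genes tested. At 14 days 0 were called higher and 4 lower (Cdnf, Hspa5, Hyou1 and Calr), beside 21.8% and 22.4%. In Tg 7 were called higher (all but Calr, Creld2 and Hyou1) and 0 lower, beside 14.9% and 15.8%. In the difference between loss and gain 0 were called higher and 3 lower (Cdnf, Hspa5 and Hsp90b1), beside 20% in each direction. Since the genes were chosen on these contrasts, nothing is read from the counts. Without 7-day KO libraries 1 and 5 the number called higher at 7 days was 1, Pdia4. Groups that did not overlap, library by library, were found for 1 gene higher and 1 lower at 7 days (23.3% and 22% of all genes), for 0 and 5 at 14 days (24.3% and 23.7%) and for 6 and 0 in Tg (18% and 19.4%). The median log2 fold change of the 10 genes was 0.27 at 7 days, -0.36 at 14 days and 0.35 in Tg, against 0.03, 0.01 and -0.00 over all genes tested.

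**Figure D3:**
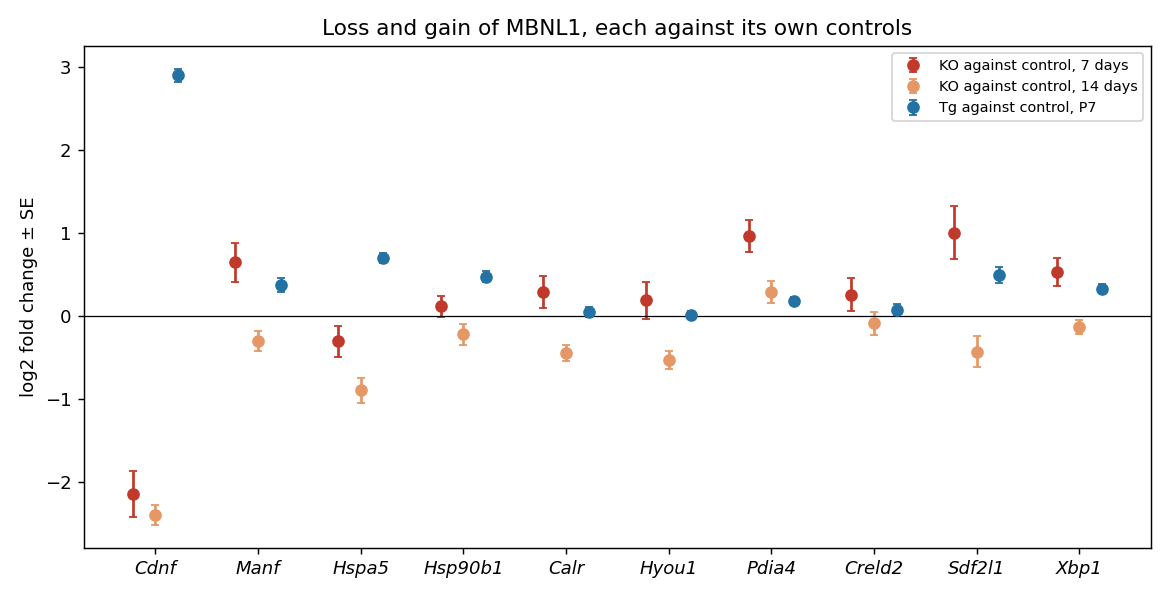
Log2 fold change ± SE of the 10 genes in the 7-day KO libraries, the 14-day KO libraries and the Tg libraries, each against its own controls. Cdnf lies far below 0 in both KO comparisons and far above 0 in Tg, at -2.14, -2.39 and 2.90, and for every gene the 14-day point lies below the 7-day point.

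**Figure D4:**
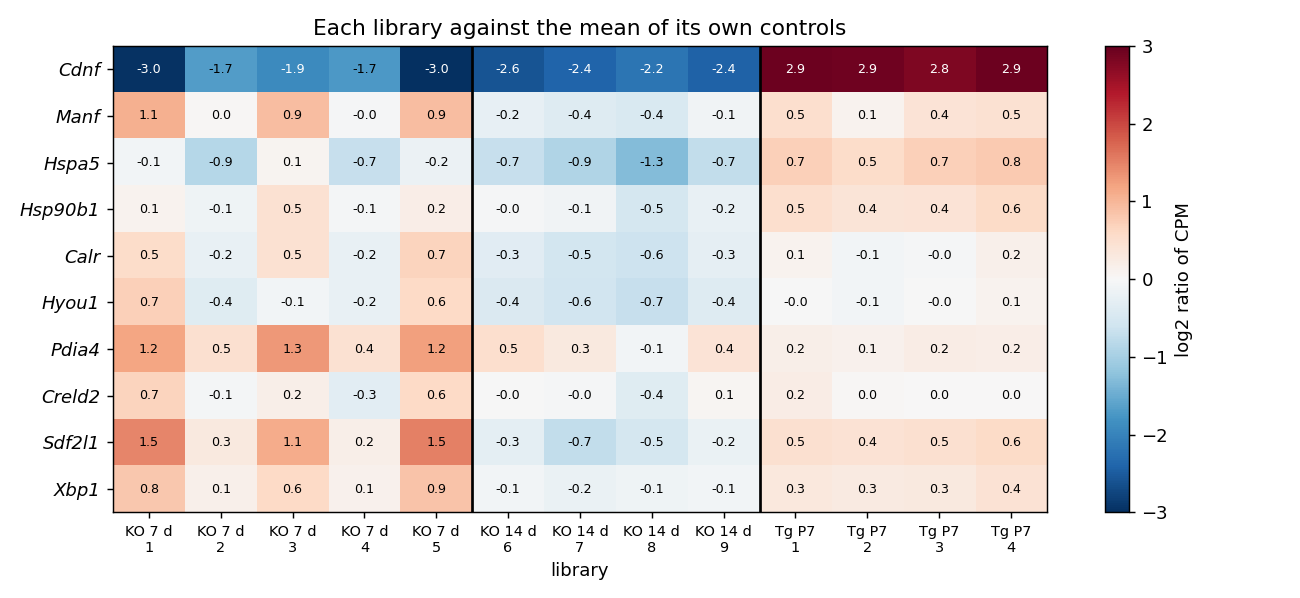
Log2 ratio of each KO or Tg library to the mean of its own controls, by gene (rows) and library (columns), printed in each cell and coloured from -3 (blue) to 3 (red). Cdnf is negative in all 9 KO libraries and positive in all 4 Tg libraries, whereas 6 of the other 9 genes change sign among the 7-day KO libraries.

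The response to knockout was lower at 14 than at 7 days for all 10 genes by fitted value. The largest differences were in Sdf2l1, at -1.41 ± 0.42, Manf, at -0.92 ± 0.30, and Calr, at -0.71 ± 0.25 in log2, and the smallest was in Cdnf, at -0.23 ± 0.34. None passed the edgeR test of the difference itself, which is a description here, since the loss contrasts were in view when the genes were chosen. Over all 15951 genes 0 (0%) were called by edgeR, although 1662 had an unadjusted p under 0.05, and the smallest adjusted p was 0.0693. DESeq2 called 148 genes and limma-voom called 0, none of them among the 10 genes. Without 7-day KO libraries 1 and 5 the difference was -0.98 for Sdf2l1, -0.64 for Manf and -0.45 for Calr, and for Cdnf it was -0.60.

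Postnatal age was compared in the control libraries, which serve as controls in the contrasts above and are therefore not independent of how the genes were chosen. These values are therefore also given as a description, without p-values. The fibroblast markers summed to 2731 to 4348 CPM at P1, 6066 to 7120 CPM at P7 and 1315 to 1601 CPM at P60. From P7 to P60 the cardiomyocyte markers went from between 42714 and 44212 to between 63478 and 71584 CPM, the macrophage markers from between 80.1 and 107.4 to between 318 and 492.7 CPM, and the endothelial markers from between 1241 and 1266 to between 763 and 881 CPM. The part of these shifts in the age differences was not tested. Between P1 and P7, 4 of the 10 genes were called higher and 0 lower, beside 12.3% and 11.2% of all genes. Cdnf rose by 1.22 ± 0.22 in log2, and all 3 P7 libraries lay above all 4 P1 libraries. Without P1 libraries 3 and 4 the value was 1.67. Calr rose by 0.39 ± 0.08, with 344 to 357 against 230 to 287 CPM. Hyou1 and Creld2 rose by 0.34 ± 0.09 and 0.33 ± 0.11, and leaving out P7 library 1, or P7 library 2, ended both calls. By range, 7 of the 10 genes stood higher at P7 without overlap and 0 lower, beside 17.7% and 15% of all genes.

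Between P7 and P60, 2 of the 10 genes were called higher and 3 lower, beside 33.3% and 36% of all genes. Cdnf rose again, by 2.72 ± 0.20 in log2 or 6.60-fold. Hspa5 rose by 0.51 ± 0.09, from 274 to 302 CPM at P7 to 321 to 485 CPM at P60, although total count scaling turned this to -0.10. Pdia4 fell by 0.90 on the log2 scale (SE 0.06), from 47.5 to 49.6 CPM at P7 to 22.9 to 28.6 CPM at P60. Manf fell by 0.61 (SE 0.09) and Creld2 by 0.34 (SE 0.10). Creld2 was not called against the 14-day P60 controls alone. Hsp90b1, at 0.06 ± 0.09, and Xbp1, at 0.00 ± 0.08, were not called, and total count scaling turned both below 0, to -0.55 and -0.60. With total count scaling 1 gene was called higher, Cdnf at 2.12, and 8 lower. That scaling moved the median of all genes to -0.65, so these counts cannot be set against the shares with TMM. Without overlap between the ages, 2 genes stood higher at P60 and 3 lower, beside 30.9% and 32.3% of all genes.

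**Figure D5:**
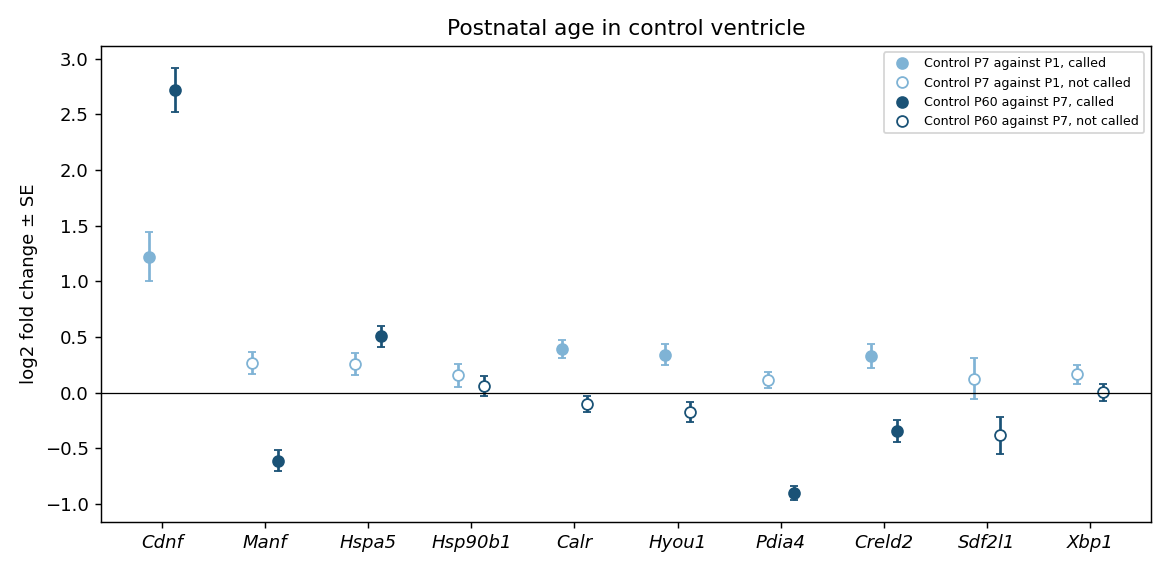
Log2 fold change ± SE of the 10 genes in control ventricle, between P1 and P7 (light) and between P7 and P60 (dark), with filled points for genes called at an adjusted p under 0.05 and open points for the rest. Cdnf lies highest at both steps, at 1.22 and 2.72, and Pdia4 lies lowest at the second step, at -0.90.

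Levels of different genes were compared per kilobase of annotated exon, with the exons of all annotated transcripts of a gene merged. The merged length can exceed that of the transcript expressed, which lowers the value, so the order depends on the annotation. For Manf, whose annotated span overlaps Dcaf1 and Rbm15b, this was not tested. In the 7-day P60 controls the order of mean CPM per kilobase was Calr at 106, Hspa5 at 88.9, Hsp90b1 at 50.002, Xbp1 at 20.006, Pdia4 at 10.3, Creld2 at 8.93, Cdnf at 7.75, Hyou1 at 6.18, Manf at 6.04 and Sdf2l1 at 3.28. Cdnf was the lowest of the 10 at P1, at 0.51 CPM per kilobase, where Manf was at 8.99. In the 7-day KO libraries Cdnf was at 1.76 and Manf at 9.51 CPM per kilobase. With these lengths, the P60 controls of 7 days were the group in which the mean of Cdnf exceeded that of Manf. In the 14-day controls, at 8.20 and 8.38, they were close.

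The genes with the level pattern most like that of Cdnf were ranked by the correlation of log2(CPM + 1) over the 27 libraries among 10781 genes, as a description. They were Tcta at 0.94, Taf1a at 0.94, Cyb5rl at 0.92, Ubl4a at 0.92 and Gorasp1 at 0.91. The most opposite were 5033428I22Rik at -0.93, Eno1 at -0.93, Dstn at -0.92, Grk3 at -0.92 and Pigq at -0.91. None of the 9 other genes of the set was among the 5 most like Cdnf. For Hspa5 the 5 most like included Hsp90b1 at 0.80, for Calr they began with Hyou1 at 0.85, and for Manf they included Pdia6 at 0.86 and Pdia4 at 0.85.

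The rest of the pathway was covered by 5 lists, which were also drawn up with earlier results of these data known. Shares of all genes beside the counts are those with TMM and all libraries of the comparison. Total count scaling moved the median gene to 0.45 at 7 days and 0.39 at 14 days. Between loss and gain that median went to 0.45, and between P7 and P60 to -0.65. Counts with total count scaling therefore cannot be set against those shares. Other folding factors of the ER, such as oxidases, lectins and HSP40 proteins, had 18 of 34 tested called higher and 1 lower at 7 days (median log2 fold change 0.34), beside 26.4% and 24.3% of all genes, and 12 higher and 4 lower at 14 days (median 0.17), beside 21.8% and 22.4%. With total count scaling the counts became 29 and 0 at 7 days and 23 and 0 at 14 days. Without KO libraries 1 and 5 those at 7 days were 19 and 1. Ero1l, the oxidase that recharges disulfide isomerases, was higher by 1.42 ± 0.22 in log2 at 7 days and 1.58 ± 0.14 at 14 days. Serpinh1, the collagen chaperone, was higher by 1.33 ± 0.12 at 7 days, beside the fibroblast markers given above. Canx, the membrane-bound relative of Calr, was lower at 14 days, with a log2 fold change of -0.37 ± 0.12, and total count scaling put it at 0.00. In Tg, where 14.9% of all genes were called higher and 15.8% lower, 8 of 34 were called higher and 1 lower (median 0.03), among them P4hb at 0.40 ± 0.05 and Dnajb11 at 0.40 ± 0.05, a luminal HSP40.

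A list of 17 sensors, transcription factors and related genes of the unfolded protein response is called the sensor list below. It includes Bbc3, Eif2s1, Mbtps1, Mbtps2 and Wfs1, which are neither sensors nor transcription factors. In this list 9 were called higher, among them Bbc3, and 1 lower at 7 days, beside the same 26.4% and 24.3% of all genes. With total count scaling the counts were 14 and 0, and without KO libraries 1 and 5 they were 9 and 1. At 14 days 7 of the 16 tested were called higher and 2 lower, beside 21.8% and 22.4% of all genes, or 12 and 0 with total count scaling. Creb3l2 and Creb3, transcription factors anchored in the ER membrane, were higher by 1.23 ± 0.08 and 1.22 ± 0.13 at 7 days and by 1.19 ± 0.08 and 1.17 ± 0.12 at 14 days. Ern1, which encodes IRE1, was lower at 14 days, at -0.39 ± 0.13. In Tg 7 were called higher and 1 lower, beside 14.9% and 15.8% of all genes. Atf4 was higher by 0.66 ± 0.06, Wfs1 by 0.55 ± 0.06 and Atf6 by 0.36 ± 0.06, while Creb3l2 was lower, at -0.31 ± 0.06.

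Targets of PERK and ATF4, which act in amino acid supply and stress signalling, were called higher in 13 and lower in 4 of 29 tested at 7 days, or 19 and 4 with total count scaling. Without KO libraries 1 and 5 the 7-day counts were 10 and 6. At 14 days the counts were 12 and 4, or 21 and 2 with total count scaling, and in Tg 17 and 1 of 28. With TMM, the shares of all genes called higher were 26.4%, 21.8% and 14.9% in these 3 comparisons. Those called lower were 24.3%, 22.4% and 15.8%. Gdf15, a secreted stress factor, was higher in all 3 comparisons, by 2.73 ± 0.25 at 7 days, 2.28 ± 0.33 at 14 days and 3.35 ± 0.22 in Tg. Atf3 was higher by 2.18 ± 0.32, 1.30 ± 0.41 and 2.47 ± 0.39 in the same order. Vldlr, a lipoprotein receptor, was lower, at -1.93 ± 0.26 at 7 days and -1.56 ± 0.10 at 14 days. Gdf15 and Atf3 thus had the same sign in loss and gain, unlike Cdnf. In the difference between loss and gain 4 of 30 targets were called higher and 7 lower, beside 20% of all genes in each direction. With total count scaling the counts were 12 and 4. Chac1 at -2.81 ± 0.52, Vldlr at -1.94 ± 0.26 and Cebpb at -1.65 ± 0.24 were among the lower, and Nupr1 at 1.39 ± 0.34 among the higher.

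Genes of protein translocation and of ER-associated degradation were called higher in 26 and lower in 1 of 45 at 7 days, in 14 and 3 at 14 days and in 15 and 0 in Tg. With TMM, all genes were called higher in 26.4%, 21.8% and 14.9% and lower in 24.3%, 22.4% and 15.8% of cases in the 3 comparisons. The counts with total count scaling were 43 and 1 at 7 days and 38 and 1 at 14 days. That scaling also moved the median of all genes up, to 0.45 and 0.39. Without KO libraries 1 and 5 the 7-day counts were 23 and 2. Kdelr3, a receptor that returns chaperones to the ER, was higher by 2.37 ± 0.15 at 7 days and 1.78 ± 0.15 at 14 days. Herpud1, a scaffold of the degradation complex, was the 1 gene called lower at 7 days, at -1.76 ± 0.32, and stood at -1.41 ± 0.13 at 14 days. Sel1l, of the same complex, was higher by 0.35 ± 0.05 in Tg.

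Chaperones of the cytosol and mitochondria served for comparison. At 7 days 6 of 23 were called higher and 5 lower, close to the 26.4% and 24.3% of all genes, or 15 and 2 with total count scaling. Without KO libraries 1 and 5 the 7-day counts were 5 and 8. This list summed to 15290 and 14995 CPM in those libraries and to 7535 to 8916 CPM in the other 7-day KO libraries. The 7-day controls stood at 7786 to 8416 CPM. At 14 days 4 were called higher and 7 lower, beside 21.8% and 22.4% of all genes, or 12 and 4 with total count scaling. Hspb1, a small heat shock protein, was higher by 2.63 ± 0.57 at 7 days and 1.28 ± 0.22 at 14 days. Hspa1a and Hspa1b, near-identical inducible HSP70 genes whose reads may be split between them, were higher by 3.98 ± 0.96 and 3.46 ± 0.88 at 7 days. The mitochondrial Hspa9 and Hspd1 were lower, at -0.71 ± 0.10 and -0.69 ± 0.12 at 7 days and at -0.79 ± 0.08 and -0.98 ± 0.09 at 14 days. In Tg 9 were called higher and 1 lower, beside 14.9% and 15.8% of all genes, with Cryab at 0.53 ± 0.06. Between loss and gain 1 of the 23 was called higher and 6 lower, beside 20% of all genes in each direction. The counts were 13 and 2 of 34 folding factors and 3 and 3 of 17 in the sensor list. In degradation and translocation they were 11 and 5 of 45. With total count scaling these 4 pairs became 12 and 5, 24 and 0, 12 and 0, and 33 and 1.

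In the controls between P7 and P60, where 33.3% of all genes were called higher and 36% lower, 8 of 34 other folding factors were called higher and 10 lower. The counts were 4 and 8 of 17 in the sensor list and 15 and 7 of 29 PERK and ATF4 targets. In degradation and translocation they were 20 and 13 of 45. Chaperones of other compartments were called higher in 14 of 23 and lower in 0. With total count scaling the pairs became 2 and 28, 2 and 15, 7 and 15, 3 and 36, and 8 and 9. Herpud1 rose by 3.07 ± 0.16 in log2, Atf6 by 1.35 ± 0.14 and Dnajb9, a luminal HSP40, by 1.38 ± 0.12. Serpinh1 fell by 1.28 (SE 0.12) and Kdelr3 by 2.32 (SE 0.16) on the log2 scale. Between P1 and P7, 12.3% of all genes were called higher and 11.2% lower. The counts there were 2 higher and 2 lower of 34 folding factors and 2 and 1 of 17 in the sensor list. In degradation and translocation they were 1 and 2 of 45. They were 1 and 8 of 23 chaperones of other compartments and 6 and 10 of 29 PERK and ATF4 targets, among the latter Atf3, which fell by 3.58 (SE 0.83) with overlapping groups, and Chac1, which rose by 1.63 ± 0.42. With total count scaling the sensor list gave 2 and 4, the folding factors 1 and 2, and degradation and translocation 1 and 4.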

How the data were processed

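RNA from mouse ventricle was sequenced in 27 libraries, extracted with TRIzol and a column kit and sequenced on the DNBseq platform per the labels' protocols. The authors deposited one table of raw counts, whole numbers of reads per Ensembl gene and library. Per the submitters' processing notes the tools were STAR, featureCounts, DESeq2 and Salmon and the genome was GRCm38 (mm10), with no version or role of each, and the strand setting was not given in the sources used here. Symbols and coordinates came from GENCODE M21 and promoter windows from RefSeq on GRCm38.p6.

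Counts were tested with edgeR 4.0.16 in R 4.3.3 (filterByExpr, TMM, quasi-likelihood F test). The Benjamini-Hochberg adjustment ran over all genes tested in a comparison, and genes were called at an adjusted p under 0.05. The scripts were tested on simulated data. CPM values were calculated after TMM scaling over all 27 libraries, and the SE of a log2 fold change is its size over the square root of F. Each KO or Tg group was compared with its own controls in a fit of those 2 groups. The times were compared in the 16 P60 libraries, loss with gain in 23 libraries and ages in the 14 control libraries with both P60 control groups averaged. Total counts of 21929347 to 25675115 put the upper limit for a gene with 0 counts, taken as 3 counts, at 0.0958 to 0.188 CPM, for counting error only. Of 40 pairs of libraries within groups, none agreed within sampling noise (chi-square per degree of freedom from 6.34 to 147).

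The 10 genes, the 5 pathway lists and the marker lists were chosen with earlier results of these data known. Genes named from the lists were up to 3 higher and 3 lower per comparison by size of change, among called genes with a mean of at least 5 CPM, from which the text gives a part. Hspa14 and Esr1 were chosen after their values were seen. Alternatives were DESeq2 1.42.0, limma-voom (limma 3.58.1), DESeq2 size factors, total count scaling, no filter on low counts, a single fit of all libraries, a replicate block and leaving out libraries. The replicate block kept only libraries whose number was shared between groups, so it left out libraries too.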

Additional observations from a re-analysis of the deposited data

Results flagged for a closer look

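Creld2 in library 1 of the Tg group stood apart from the other 3 Tg libraries, at 18.8 CPM against 16.3 to 16.7 CPM. Its gap to the nearest library was a share of 0.858 of the range of the group, above Dixon's 95% critical value of 0.829 for 4 samples. Of 50 sets of values tested this way this was the 1 marked, and chance marks about 1 in 20.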

How the results depend on the processing

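The log2 fold change of Cdnf ranged over the alternatives from -2.28 to -1.71 at 7 days, -2.47 to -2.01 at 14 days, 2.88 to 2.94 in Tg and -5.30 to -4.74 between loss and gain, as a description of values the genes were chosen on. Between P7 and P60 it ranged from 2.12 to 2.76. Between P1 and P7 it lost its call with a replicate block, a fit that also left out libraries without a shared number. Total count scaling had the widest effect. It turned the 14-day log2 fold changes of Xbp1 to 0.24, Canx to 0.00195, Dnajb12 to 0.0361, Lman1 to 0.0782, Mbnl1 to 0.0340, Nfyc to 0.0156 and Txndc11 to 0.0725, and the uncalled Manf to 0.08, Creld2 to 0.29 and Hsp90b1 to 0.16. It turned those between P7 and P60 to -0.24 for Ern1, -0.55 for Hsp90b1, -0.10 for Hspa5 and -0.60 for Xbp1, and those between loss and gain to 0.0339 for Creld1, 0.0657 for Lman1, 0.0796 for Nfyc, 0.12 for Sdf2 and 0.0564 for Sel1l, and to 0.30 for Calr, 0.24 for Hyou1, 0.23 for Manf, 0.21 for Sdf2l1, 0.29 for Xbp1 and 0.43 for Creld2, none of these 6 called. The cause was not tested.

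The counts below are a description, and for most settings the share of all genes is not given. Total count scaling moved the median gene to 0.45 at 7 days, 0.39 at 14 days and -0.65 between P7 and P60. Its counts therefore cannot be set against the shares with TMM. Of the 10 genes, 4 were called higher at 7 days, against 8 with total count scaling and 2 with limma-voom. The number was 1 without KO libraries 1 and 5, and 2 to 4 when single libraries were left out. Manf lost its call without any one control or without KO library 1, 3 or 5, Sdf2l1 without control 1, and Xbp1 without control 3 or 4. At 14 days 0 were called higher, against 2 with total count scaling and 0 to 1 when single libraries were left out (Pdia4, without KO library 8), and 4 were called lower, against 2 with total count scaling and 4 to 5 with libraries left out. In Tg 4878 genes were called, 7 of the 10 among them, against 973 and 3 in a single fit of all 27 libraries, and 3717 to 4486 and 7 with libraries left out. Between P1 and P7 3844 genes were called, 4 of the 10 among them, all higher. The single fit gave 1 of the 10, and leaving out libraries gave 2 to 6 of the 10 and 2508 to 4492 genes, lowest without P7 library 2. Between P7 and P60 2 were called higher, against 1 with total count scaling, and 3 lower, against 8 with total count scaling, 5 against the 7-day controls alone and 3 to 4 with libraries left out. For the difference between 14 and 7 days 0 genes were called, against 148 with DESeq2, 52 in the single fit, 13 without a filter, 2 with total count scaling, 3 without KO libraries 1 and 5 and 0 to 21 with libraries left out. Between loss and gain 3 were called lower. The number was 2 with total count scaling, with the 7-day effect alone or with a replicate block (each without Hsp90b1). It was 4 without 7-day KO libraries 1 and 5. Called higher were 0, against 1 with total count scaling, 1 with the 7-day effect alone and 0 to 1 with single libraries left out.

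Samples were treated as unpaired, since in no comparison with 3 or more shared replicate numbers were all correlations of deviations above 0.1. At 14 days, outside that rule, libraries 6 and 7 gave 0.22 and -0.46. With so few libraries per group these values cannot exclude pairing or a shared batch. With a replicate block 1 of the 10 genes was called higher at 7 days, 1 at 14 days and 1 between P1 and P7, where 1624 genes were called in all. That fit kept only libraries with a shared number, at 14 days libraries 6 and 7 of each group. Blocking and the loss of libraries cannot be told apart in it. Depth was similar across libraries, and the lowest Cdnf level, 0.95 CPM, stood above the 3-count limit of 0.0983 CPM in that library.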
